A study of Mus musculus with 12 samples.

Results

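Receptor genes for noradrenaline, serotonin, dopamine, purines and acetylcholine were followed in sorted mouse cells that the sample titles call astrocytes. These 10 genes all code for G protein-coupled receptors: Adra1a, Adra1b, Adra2a, Adrb1, Adora1, Adora2b, P2ry1, Htr2c, Chrm1 and Drd1. They were chosen by name, with earlier results of these data known, and each was found once among the 55401 genes of the counts table. The edgeR filter on low counts kept 6 of the 10 members among 12613 genes in all, namely Adra1a, Adra2a, Adrb1, Adora1, Adora2b and Htr2c. P2ry1 and Chrm1 had counts in 2 libraries each and were not tested, and Adra1b and Drd1 had no count in any of the 12 libraries.

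The mice of all groups carried CD51-Flp and the Rosa-CAG-FSF-tdTomato reporter, in which Flp recombinase made where CD51 (integrin alpha-v, encoded by Itgav) is expressed turns on tdTomato. The 4 groups were hippocampus CD51+ (tdTomato+/GFP+ cells), hippocampus CD51- (tdTomato-/GFP+ cells), cortex CD51+ (tdTomato+/GFP+ cells) and cortex CD51- (tdTomato-/GFP+ cells), with 3 libraries each. What drives GFP, and the age, sex and strain of the mice, are not given in the sources used here. Whether the replicates were separate animals is not stated either, so p-values measure only the spread between these libraries, which may be technical. Classes follow the sample titles. The library names carry G where the title says CD51+ and GT where it says CD51-. If GT stands for both reporters the titles are swapped, and every class difference here changes sign.

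The member receptors for noradrenaline, serotonin, dopamine, purines and acetylcholine couple released transmitters to G proteins. Receptors that act through Gq raise calcium in astrocytes by way of phospholipase C beta and inositol trisphosphate receptors, those that act through Gs raise cyclic AMP, and those that act through Gi or Go lower it. Noradrenaline is known for driving widespread astrocyte calcium signals during arousal through alpha-1 receptors, and ATP released by cells is broken down to adenosine outside them.

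Depth and purity bear on all values. Total counts were 4.35e6 to 12.8e6 read pairs per library, and 12113 to 15425 genes were detected. The mitochondrial share was 49.9% to 53.3% of counts in hippocampus CD51+ libraries and 20.2% to 29.4% in hippocampus CD51- libraries, against 36.5% to 71.1% in cortex CD51+ and 22.5% to 38.6% in cortex CD51-. All 12 astrocyte markers were detected in every group, and their summed level was 45178 to 57594 CPM (counts per 1000000 on scaled library sizes) in hippocampus CD51+ and 13749 to 16218 CPM in hippocampus CD51-. In cortex it was 53344 to 73339 CPM in CD51+ and 4869.9 to 13617 CPM in CD51- libraries. Oligodendrocyte markers summed to 1133 to 4809.8 CPM in hippocampus CD51+, 6759 to 37256 CPM in hippocampus CD51-, 2733 to 2823 CPM in cortex CD51+ and 32539 to 63014 CPM in cortex CD51-. Microglia markers summed to 204 to 1563 CPM in hippocampus CD51+, 5161 to 7520.1 CPM in hippocampus CD51-, 334 to 997 CPM in cortex CD51+ and 8070.1 to 11155 CPM in cortex CD51-. Immediate early genes summed to 125 to 411 CPM in hippocampus CD51+, 5221 to 10919 CPM in hippocampus CD51-, 46.1 to 183 CPM in cortex CD51+ and 10065 to 14676 CPM in cortex CD51-. Itgav itself was at 371, 321 and 409 CPM in hippocampus CD51+, 221, 561 and 353 CPM in hippocampus CD51-, 335, 533 and 873 CPM in cortex CD51+, and 356, 246 and 324 CPM in cortex CD51-, and the classes overlapped in both regions. As a sum, neuron markers went the other way in both regions. In hippocampus they summed to 580.4 to 829 CPM in CD51+ against 64.2 to 318 CPM in CD51-. In cortex they summed to 496 to 737 CPM in CD51+ against 185 to 381 CPM in CD51-. The summed oligodendrocyte precursor markers were also higher in CD51+. Their sums were 96.2 to 114 CPM in hippocampus CD51+ against 7.65 to 79.4 CPM in hippocampus CD51-. For cortex the sums were 169.8 to 219.9 CPM in CD51+ against 0.357 to 32.3 CPM in CD51-. Of the 10 neuron markers Rbfox3 was at 0 in hippocampus CD51+, Slc17a6 in hippocampus CD51- and Tubb3 in cortex CD51-. Map2 and Snap25 made up most of the neuron sums. Map2 was higher in every CD51+ library than in every CD51- library of its region, and Snap25 in hippocampus only. Rbfox3 went against the sum in hippocampus, at 0, 0 and 0 CPM in CD51+ against 12.4, 4.43 and 0 CPM in CD51-. In cortex it was at 0, 9.43 and 7.66 CPM in CD51+ against 1.51, 0 and 79.7 CPM in CD51-. Cortical values of Slc17a7 also overlapped between the classes. Of the 6 precursor markers 2 had a count in each CD51+ group, against 6 in hippocampus CD51- and 4 in cortex CD51-. The higher CD51+ sums thus rest on 2 genes in each region. The defining Pdgfra and Cspg4 were at 0 in hippocampus CD51+ and Cspg4 in cortex CD51+. Gpr17 and C1ql1 were at 0 in both CD51+ groups, and C1ql1 and Neu4 in cortex CD51-. The summed marker levels thus moved with class in both regions. Mitochondrial share did so in hippocampus, while its cortical ranges overlapped. The part of marker content and mitochondrial share in the receptor differences was not tested. In these bulk libraries, fewer cells that make a transcript and less of it per cell cannot be told apart.

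The receptors were scarce and uneven between libraries of 1 group. Adora1 was the only member with a count in all 12 libraries, and 5 of the 6 tested members had at least 1 library at 0, as did 55.5% of all tested genes. Of the 5 members that reached 10 CPM in a hippocampus CD51+ library, 2 were under 1 CPM in another library of that group, against 24.2% of all tested genes that reached 10 CPM there. The members that reached 10 CPM with a library under 1 CPM were 2 of 4 in hippocampus CD51- (24.8% of genes), 0 of 3 in cortex CD51+ (26.5%) and 2 of 3 in cortex CD51- (34.4%). A total of 3 counts, used as the floor where a group has none, corresponds to 0.168 CPM over the hippocampus CD51+ libraries, 0.0877 CPM over hippocampus CD51-, 0.16 CPM over cortex CD51+ and 0.11 CPM over cortex CD51-. Floors and counting intervals cover counting error only, because reads were not tied to single molecules.

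**Figure D1:**
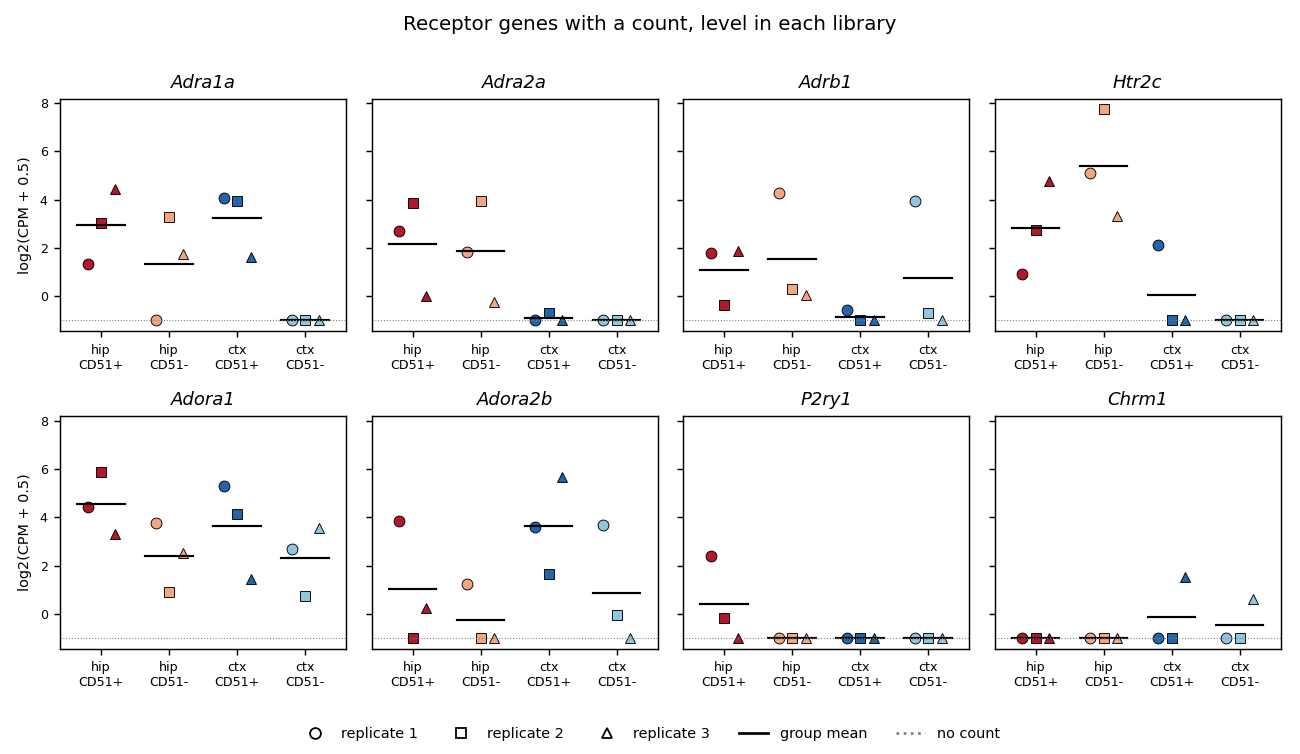
Level of the 8 receptor genes with at least 1 count, as log2(CPM + 0.5), in each of the 12 libraries (hip, hippocampus; ctx, cortex). Symbols mark replicate numbers, black lines are group means (n = 3) and the dotted line is the value of a library with no count; Adra1a lies on it in all 3 cortex CD51- libraries, and Adra2a on or near it in all 6 cortex libraries.

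Across the 6 tested members, Adra1a was the only one called between the classes, at an adjusted p under 0.05 (quasi-likelihood test of edgeR, p-values adjusted by Benjamini-Hochberg over all tested genes). In hippocampus, 0 of 6 members were called, where 3.31% of all tested genes were. By the same test 0 members had an unadjusted p under 0.05 there, beside 2407 of all 12613 tested genes. DESeq2 and limma-voom also called 0 members, beside 1457 and 885 genes. In cortex 1 of 6 members was called, Adra1a, which was higher in CD51+, where 11.3% of all tested genes were called. In cortex 3 members had an unadjusted p under 0.05, beside 4028 of all 12613 tested genes. DESeq2 called 2 members and 3219 genes there, and limma-voom called 1 member and 2164 genes. With both regions averaged 1 of 6 members was called, again Adra1a, where 22.7% of all tested genes were.

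Adra1a encodes the alpha-1A adrenergic receptor, a Gq-coupled receptor for noradrenaline, and lies at chr14:66635251-66771168 on the plus strand (mm10, as for all positions here). Its level was 2.05, 7.73 and 21.1 CPM in hippocampus CD51+ against 0, 9.13 and 2.88 CPM in hippocampus CD51-, and 16.5, 14.9 and 2.62 CPM in cortex CD51+ against 0, 0 and 0 CPM in cortex CD51-. All 3 cortex CD51+ libraries were above all 3 cortex CD51- libraries, whereas the hippocampal classes overlapped. Among the tested members, 1 of 6 had class groups that did not overlap in cortex and 0 of 6 in hippocampus, against 31.7% of all tested genes in cortex and 27.1% in hippocampus.

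In cortex, the 229 counts of Adra1a in CD51+ against 0 in CD51- made it at least 111-fold higher in CD51+, against a floor of 3 counts over the group, with an adjusted p of 0.0421 by edgeR. The exact two-sided permutation test of the same 6 libraries gave p = 0.1, the smallest that 3 against 3 libraries allow. In hippocampus the log2 difference was 1.36 ± 2.08 (SE), with an adjusted p of 0.818 by edgeR and an exact permutation p of 0.5. The averaged call had an adjusted p of 0.029, and the test of whether the class difference differed between the regions gave an adjusted p of 0.302, so a difference between regions was not shown.

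The Adra1a call lay near the threshold. In cortex it held in 3 of the 12 fits that each left out 1 library (adjusted p 0.0351 to 0.104), namely without hippocampus CD51+ replicate 1, hippocampus CD51- replicate 1 or hippocampus CD51- replicate 3. It was also lost without a filter on low counts (adjusted p 0.0502), and among the 6 cortical libraries alone Adra1a did not pass the filter and was not tested, while DESeq2 gave an adjusted p of 3.38e-04 and limma-voom 0.0117. The averaged call held in 6 of 12 such fits (adjusted p 0.0344 to 0.0664) and was lost with cortex CD51+ replicate 1, cortex CD51- replicate 1 or 2, hippocampus CD51+ replicate 3, or hippocampus CD51- replicate 1 or 3 left out.

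**Figure D2:**
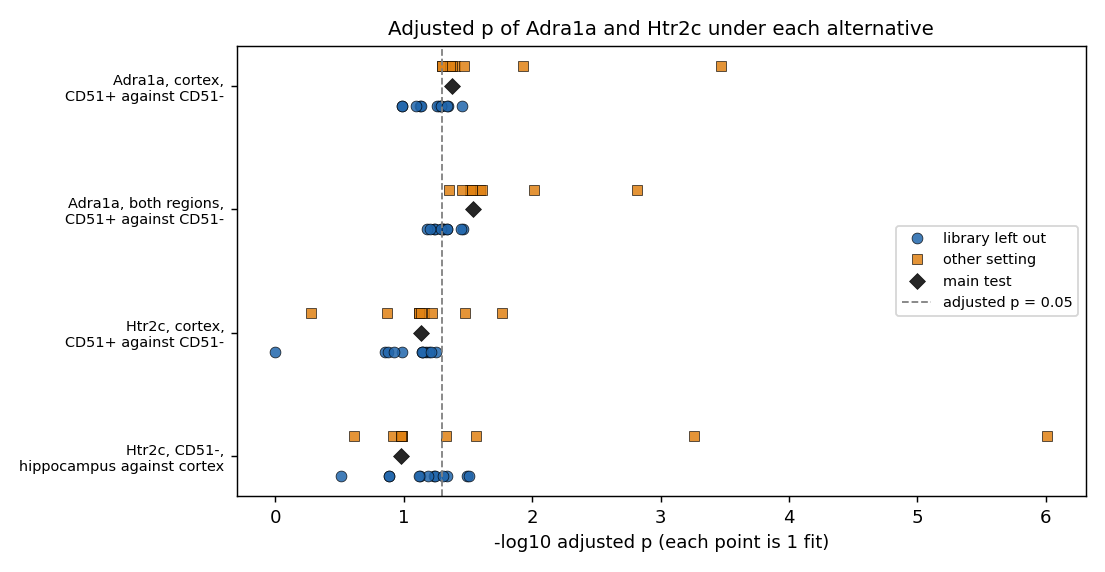
Adjusted p of Adra1a and Htr2c, as -log10 on the horizontal axis, by the edgeR test on all libraries (black), with 1 library left out (blue) and under other settings such as DESeq2 or no filter (orange); the dashed line marks 0.05. Most left-out fits put Adra1a in cortex left of the line, and Htr2c between regions lies on both sides of it.

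Likeness of pattern to Adra1a over the 12 libraries was ranked by Pearson's r of log2(CPM + 0.5). Only tested genes were ranked, and predicted genes, pseudogenes and mitochondrial genes were left out. The most alike were Fam19a5 (r = 0.959), Lurap1 (r = 0.958) and Mtmr9 (r = 0.933). These values describe libraries that share the same class and region groups, and no test was made of them. Fam19a5, which encodes a secreted protein, ranged over 14.4 to 60 CPM in hippocampus CD51+, 0.326 to 12.6 CPM in hippocampus CD51-, 9.07 to 58 CPM in cortex CD51+ and 0.119 to 1.16 CPM in cortex CD51-.

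Adra2a, the Gi-coupled alpha-2A adrenergic receptor at chr19:54044151-54048982 on the plus strand, was counted almost only in the hippocampal libraries. It was at 5.92, 14 and 0.499 CPM in hippocampus CD51+ and 3.02, 15.1 and 0.36 CPM in hippocampus CD51-, against 0, 0.127 and 0 CPM in cortex CD51+ and 0, 0 and 0 CPM in cortex CD51-. Every hippocampal library was above every cortical one, within which a single read pair was counted, and replicate 3 was the low library in both hippocampal classes.

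Within CD51+ libraries, Adra2a had 134 counts in hippocampus against 1 in cortex, a ratio of 141 (95% counting interval 24.8 to 5601), but the adjusted p was 0.354 by edgeR. Within CD51- libraries the 205 hippocampal counts against 0 in cortex made it at least 54.4-fold higher in hippocampus, with an adjusted p of 0.245. In DESeq2 the second comparison had an adjusted p of 0.0262, and no other alternative called it. The hippocampal classes differed by 0.14 ± 2.12 log2 units (SE, adjusted p 0.987).

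The background of the region comparisons was close to empty in edgeR. Within CD51+ libraries, 0 of 6 members were called between hippocampus and cortex, where 0.0396% of all tested genes were. There 1 member had an unadjusted p under 0.05, beside 1488 of all 12613 tested genes. DESeq2 and limma-voom called 0 members, beside 488 and 2 genes. Within CD51- libraries, 0 of 6 members were called, as were 0% of all tested genes. Unadjusted p was under 0.05 for 3 members, beside 1664 of all 12613 tested genes. DESeq2 called 3 members and 706 genes, and limma-voom called 1 member and 109 genes. Groups did not overlap between the regions for 2 of 6 members within CD51+ (Adra2a and Adrb1) against 13.5% of all tested genes, and for 2 of 6 within CD51- (Adra2a and Htr2c) against 14.7%. For the interaction of class and region, 0 of 6 members and 0% of all tested genes were called by edgeR. For it 2 members had an unadjusted p under 0.05, beside 1584 of all 12613 tested genes. DESeq2 called 1 member and 522 genes, and limma-voom called 0 members and 0 genes.

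Adrb1, the Gs-coupled beta-1 adrenergic receptor at chr19:56722199-56733113 on the plus strand, was concentrated in single libraries. It was at 2.96, 0.267 and 3.16 CPM in hippocampus CD51+ against 19, 0.738 and 0.54 CPM in hippocampus CD51-. In cortex it was at 0.167, 0 and 0 CPM in CD51+ against 14.8, 0.119 and 0 CPM in CD51-. Replicate 1 was the high library of both CD51- groups and held 233 of their 247 hippocampal counts and 176 of their 177 cortical counts, and the classes overlapped in both regions.

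With 1 count against 177, the cortical level of Adrb1 was 122 times lower in CD51+ (95% counting interval 21.7 to 4854), but the adjusted p was 0.147 by edgeR and the exact permutation p was 0.7. In hippocampus the log2 difference was -1.66 ± 2.33 (SE, adjusted p 0.794). Within CD51+ libraries hippocampus lay above cortex in all libraries, with 34 counts against 1 and a ratio of 35.7 (95% counting interval 5.99 to 1452), but the adjusted p was 0.517. Adra1b, the alpha-1B adrenergic receptor, had 0 counts in all 12 libraries, where 3 counts would be 0.0306 CPM, so it was not detectable at this depth. Among all genes of the table, 56.1% had no count.

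Adora1 was the receptor gene with the most even detection. It encodes the Gi-coupled adenosine A1 receptor and lies at chr1:134199223-134235431 on the minus strand. Its level was 21.2, 57.6 and 9.49 CPM in hippocampus CD51+ against 13.1, 1.38 and 5.22 CPM in hippocampus CD51-, and 38.5, 17.1 and 2.22 CPM in cortex CD51+ against 5.87, 1.19 and 11.2 CPM in cortex CD51-. The highest library of each region was a CD51+ library, but the classes overlapped in both regions.

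Group means of Adora1 were 29.4 ± 25.1 CPM in hippocampus CD51+ and 6.55 ± 5.95 CPM in hippocampus CD51-, and 19.3 ± 18.3 CPM in cortex CD51+ and 6.07 ± 4.99 CPM in cortex CD51- (SD, n = 3 each). The log2 differences were 2.16 ± 1.61 in hippocampus (SE, adjusted p 0.541), 1.67 ± 1.59 in cortex (adjusted p 0.516) and 1.91 ± 1.13 with the regions averaged (adjusted p 0.238), all by edgeR. None passed the threshold, and the averaged adjusted p was 0.0795 to 0.491 over 21 alternatives. Counting did not use strand, and 1162 exon bases of Adora1 are shared with Mybph on the other strand, a gene that itself had 0 counts.

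Adora2b, which encodes the Gs-coupled adenosine A2B receptor of low affinity for adenosine, lies at chr11:62248984-62266453 on the plus strand. It was at 13.9, 0 and 0.666 CPM in hippocampus CD51+ against 1.88, 0 and 0 CPM in hippocampus CD51-, and at 11.7, 2.68 and 49.8 CPM in cortex CD51+ against 12.3, 0.476 and 0 CPM in cortex CD51-. In each group 1 library held most of the signal, and the classes overlapped in both regions. The log2 differences were 2.91 ± 2.47 in hippocampus (SE, adjusted p 0.607 by edgeR) and 2.32 ± 2.40 in cortex (adjusted p 0.555).

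P2ry1 encodes the Gq-coupled P2Y1 receptor for ADP and lies at chr3:61002795-61008982 on the plus strand. It had 21, 3 and 0 counts in hippocampus CD51+, which were 4.79, 0.4 and 0 CPM, and no count in the 3 hippocampus CD51- libraries or the 6 cortical ones. It was thus at least 15.3-fold higher in hippocampus CD51+ than in hippocampus CD51-, a value that rests on 1 library, and the exact permutation p was 0.4. Of its exon bases 992 are shared with Gm37035 on the other strand, which had 0 counts.

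Htr2c encodes the Gq-coupled serotonin 5-HT2C receptor, known for its high level in choroid plexus epithelium, and lies at chrX:146962513-147197277 on the plus strand. It was at 1.37, 6.26 and 26.8 CPM in hippocampus CD51+ against 33.9, 214 and 9.44 CPM in hippocampus CD51-, and at 3.84, 0 and 0 CPM in cortex CD51+ against 0, 0 and 0 CPM in cortex CD51-. All 3 hippocampus CD51- libraries were above all cortical libraries, and replicate 2 of that group alone held 2325 of its 2845 counts. The hippocampal classes overlapped.

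Within CD51- libraries, Htr2c was at least 755-fold higher in hippocampus than in cortex, with an unadjusted p of 1.81e-04 and an adjusted p of 0.105 by edgeR. The adjusted p was under 0.05 in 8 of 22 alternatives, among them DESeq2 (9.76e-07), limma-voom (0.0274) and no filter (5.47e-04), and ran up to 0.31 without hippocampus CD51- replicate 2. Within CD51+ libraries the log2 difference between hippocampus and cortex was 3.15 ± 1.79 (SE, adjusted p 0.529). The hippocampal classes differed by -2.90 ± 1.75 log2 units (SE, adjusted p 0.411), and the interaction of class and region had an adjusted p of 0.192. In cortex all 23 counts lay in CD51+ replicate 1, at least 11.1-fold above CD51-, with an adjusted p of 0.0731 by edgeR and 1 without that library.

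Choroid plexus markers as a sum were higher in hippocampus than in cortex within each class, as was mean Htr2c. All 8 had a count in hippocampus CD51+, 7 in hippocampus CD51- (Aqp1 was at 0), 2 in cortex CD51+ and 4 in cortex CD51-. Their summed level was 476 to 2041 CPM in hippocampus CD51+, 1255 to 5634 CPM in hippocampus CD51-, 23.8 to 52.7 CPM in cortex CD51+ and 57.5 to 454 CPM in cortex CD51-. Folr1, Kcnj13, Kl, Otx2, Aqp1 and Slc4a5 were at 0 in cortex CD51+, and Kcnj13, Clic6, Aqp1 and Slc4a5 in cortex CD51-.

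Ttr, the transthyretin gene of choroid plexus epithelium, was at 441, 1956 and 1932 CPM in hippocampus CD51+ and 2566, 5345 and 1207 CPM in hippocampus CD51-, so the library with the most Htr2c also had the most Ttr. Kl, the klotho gene, was at 229, 129 and 20.8 CPM in the hippocampus CD51- libraries and was highest in replicate 1, where Htr2c was 33.9 CPM. Folr1, Kcnj13, Clic6 and Otx2 were also highest in replicate 1 of that group. Clic6, for example, was at 156, 36.4 and 7.2 CPM. Slc4a5 was highest in replicate 2, as were Ttr and Htr2c. Cortex CD51- replicate 3 had 428 CPM of Ttr and no Htr2c, and replicate 2 of that group had 55.3 CPM of Kl and no Htr2c. The part of choroid plexus RNA in the Htr2c level was not tested.

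**Figure D3:**
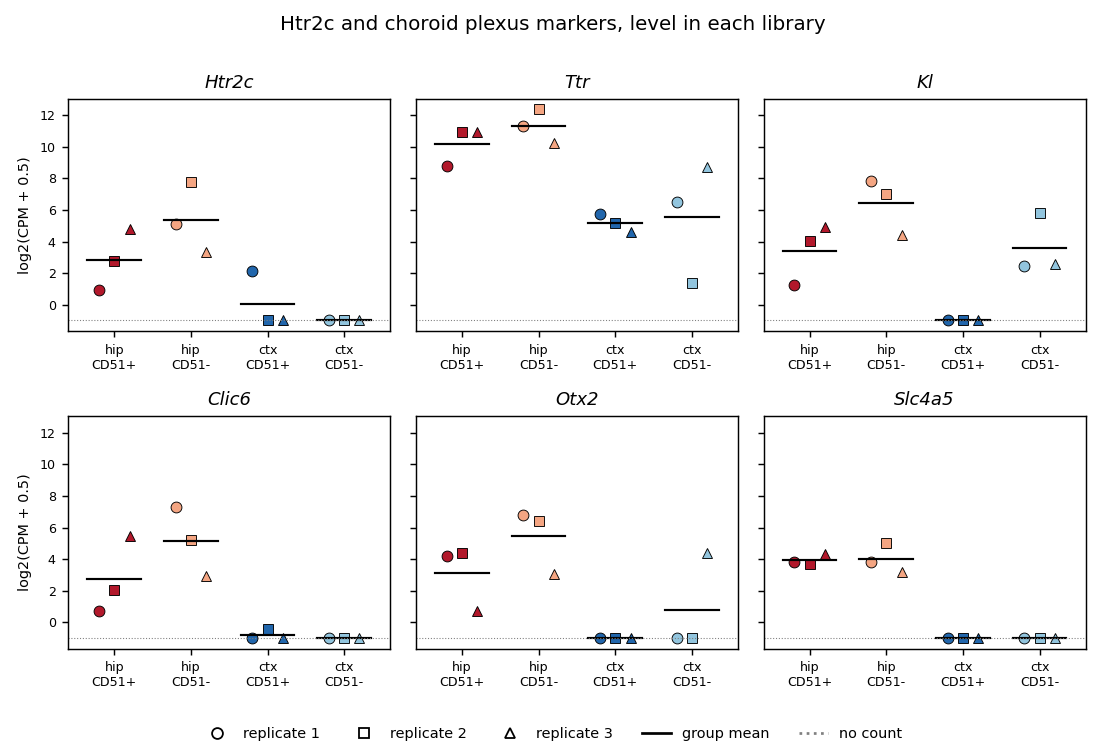
Htr2c and 5 choroid plexus markers, as log2(CPM + 0.5), in each of the 12 libraries (hip, hippocampus; ctx, cortex; lines are group means, n = 3; the dotted line is no count). Htr2c, Ttr, Clic6 and Slc4a5 were all higher in the 3 hippocampus CD51- libraries than in every cortical library. Kl and Otx2 overlapped. Kl was at 55.3 CPM in cortex CD51- replicate 2 and Otx2 at 20 CPM in cortex CD51- replicate 3. Hippocampus CD51- replicate 3 had 20.8 CPM of Kl and 7.92 CPM of Otx2.

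Drd1, the Gs-coupled dopamine D1 receptor, had 0 counts in all 12 libraries, like Adra1b. Chrm1, the Gq-coupled muscarinic M1 receptor at chr19:8663789-8683587 on the plus strand, had no count in the 6 hippocampal libraries. In cortex it had 0, 0 and 12 counts in CD51+ (0, 0 and 2.42 CPM) against 0, 0 and 7 counts in CD51- (0, 0 and 1.01 CPM), each time in replicate 3. The exact permutation p in cortex was 1, and 329 of its exon bases are shared with Gm22820 on the other strand, which had 0 counts.

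Levels per length (FPKM, the CPM per kilobase of exon) allow the members to be ordered within a group. In hippocampus CD51+ the mean level of Adora1 was 5.08 ± 4.33 FPKM, above Adora2b at 2.63 ± 4.25, Adra2a at 1.41 ± 1.41, Htr2c at 1.23 ± 1.45, Adra1a at 1.18 ± 1.12, Adrb1 at 0.63 ± 0.478 and P2ry1 at 0.403 ± 0.619 FPKM (SD, n = 3). In hippocampus CD51- Htr2c led with 9.21 ± 12 FPKM, followed by Adrb1 at 2 ± 3.14, Adra2a at 1.28 ± 1.63, Adora1 at 1.13 ± 1.03, Adra1a at 0.459 ± 0.535 and Adora2b at 0.339 ± 0.587 FPKM. The libraries of each member overlapped those of the next member in both orders, so the ranks are not separated beyond the spread.

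In cortex CD51+ Adora2b led with 11.6 ± 13.6 FPKM, followed by Adora1 at 3.33 ± 3.16, Adra1a at 1.3 ± 0.871, Htr2c at 0.137 ± 0.237 and Chrm1 at 0.124 ± 0.215 FPKM. In cortex CD51- the order was Adora2b at 2.31 ± 3.78, Adrb1 at 1.47 ± 2.51, Adora1 at 1.05 ± 0.862 and Chrm1 at 0.0521 ± 0.0903 FPKM. Neighbours overlapped there too, except Adora1 and Chrm1 in cortex CD51-. Members with 3 or fewer counts in a group were left out of these orders.

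Among the other purine receptors, called genes were lower in CD51+ in both regions. Of 16 such receptors, 7 were tested, and 0 were higher and 2 lower in CD51+ in hippocampus, and 0 were higher and 3 lower in cortex, where 3.31% and 11.3% of all tested genes were called in either direction. The median log2 difference of the 7 was -3.17 in hippocampus and -4.05 in cortex, beside -0.22 and -0.03 over all tested genes. P2ry12, the Gi-coupled ADP receptor that is itself 1 of the 12 microglia markers summed above, was at 90.2, 35.6 and 403 CPM in hippocampus CD51+ against 1143, 1822 and 1803 CPM in hippocampus CD51-. In cortex it was at 91.1, 226 and 107 CPM in CD51+ against 2791, 2257 and 1981 CPM in CD51-. It fell by 3.17 log2 units in hippocampus (SE 0.67, adjusted p 0.00817 by edgeR) and by 4.05 in cortex (SE 0.70, adjusted p 7.31e-04).

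P2ry6, a Gq-coupled receptor for UDP, had 0 counts in hippocampus CD51+ against 922 in hippocampus CD51-, at least 161-fold lower (adjusted p 0.0086 by edgeR). In cortex it had 1 count in CD51+ against 1570 in CD51- (adjusted p 0.00421). P2ry13, another Gi-coupled ADP receptor, was lower in CD51+ in cortex, with a log2 difference of -7.31 ± 1.5 (SE, adjusted p 0.00277) and differed by -2.08 ± 1.17 in hippocampus (adjusted p 0.363). P2rx7, an ATP-gated ion channel, was lower with the regions averaged (-2.91 ± 0.79, adjusted p 0.0116). The summed microglia markers given above were also higher in every CD51- library than in every CD51+ library, and their part in these receptor differences was not tested.

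Among 22 other serotonin, dopamine and histamine receptors, 10 had no count and only Hrh1 was tested. Hrh1, the Gq-coupled histamine H1 receptor, was at 12.3, 8 and 0.166 CPM in hippocampus CD51+ against 0.0816, 6.83 and 0.09 CPM in hippocampus CD51-, and at 8.17, 9.94 and 0.605 CPM in cortex CD51+ against 0, 0 and 0 CPM in cortex CD51-. As for Adra1a, the cortical groups did not overlap and the hippocampal ones did. It was higher in CD51+ with the regions averaged (adjusted p 0.0487 by edgeR), and this call held in 1 of the 12 fits that left out a library. Of 16 other acetylcholine receptors 9 had no count and none was tested.

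**Figure D4:**
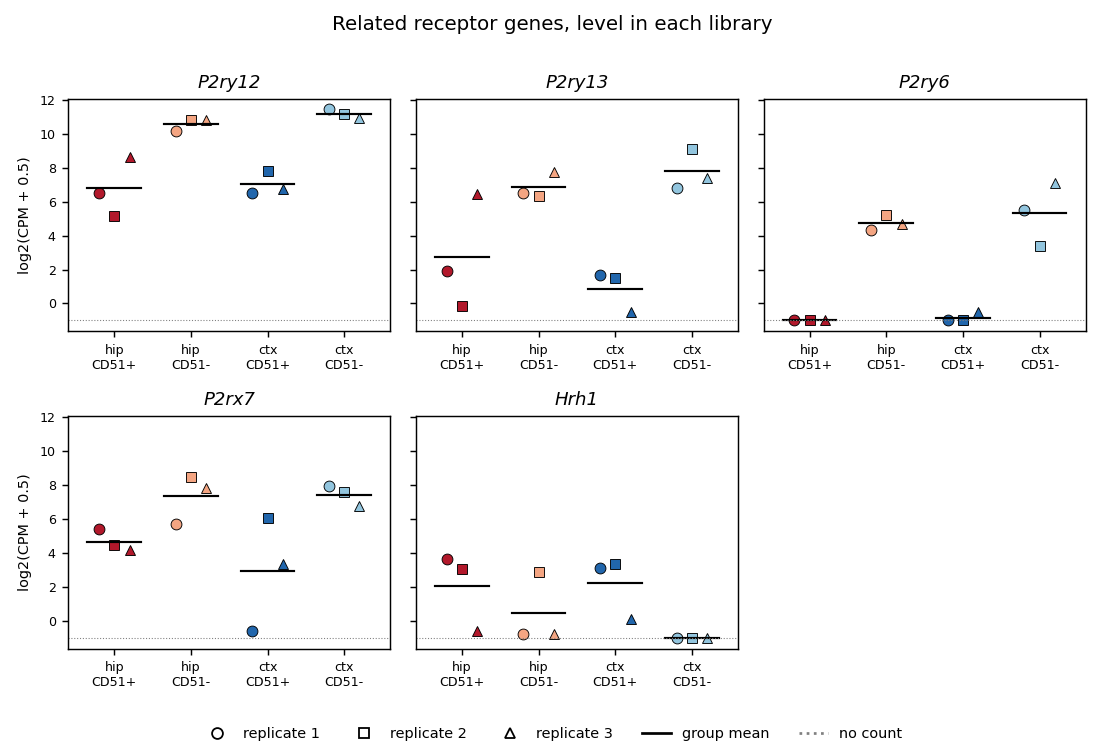
Level of 5 related receptor genes named by p, as log2(CPM + 0.5), in each of the 12 libraries (hip, hippocampus; ctx, cortex; lines are group means, n = 3; the dotted line is no count). P2ry12 and P2ry6 were lower in every CD51+ library than in every CD51- library of the same region, and Hrh1 had no count in cortex CD51-.

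The machinery behind the receptors was detected far more fully. Of 38 genes for G protein subunits, phospholipase C beta, adenylyl cyclases, inositol trisphosphate receptors, kinases and arrestins, 33 were tested. In hippocampus 0 were higher and 1 lower in CD51+, and in cortex 5 were higher and 1 lower, so 1 of 33 and 6 of 33 were called beside 3.31% and 11.3% of all tested genes. The median log2 difference was 0.46 in hippocampus and 1.23 in cortex, beside -0.22 and -0.03 over all tested genes. Plcb1, the phospholipase C beta 1 gene downstream of Gq, was at 271, 353 and 739.8 CPM in hippocampus CD51+ against 111, 63.7 and 29 CPM in hippocampus CD51-, and at 122, 416 and 285 CPM in cortex CD51+ against 38.8, 1.07 and 38.3 CPM in cortex CD51-. All CD51+ libraries were above all CD51- libraries. The log2 difference was 2.75 ± 0.90 in hippocampus (SE, adjusted p 0.1 by edgeR), 3.40 ± 0.93 in cortex (adjusted p 0.0205) and 3.07 ± 0.64 averaged (adjusted p 0.00172).

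The other transducers higher in CD51+ in cortex were Adcy2, an adenylyl cyclase (5.79 ± 1.42 log2 units, adjusted p 0.0105), Arrb1, beta-arrestin 1 (3.72 ± 0.76, adjusted p 0.00274), Gnao1, the Go alpha subunit (2.57 ± 0.69, adjusted p 0.0191), and Gnaz, the Gz alpha subunit (900 counts against 2, adjusted p 0.0449). For Gnaz 883 of the 900 counts lay in cortex CD51+ replicate 2, while the other libraries of that group had 2 and 15, and the adjusted p was 0.319 without it. Plcb2, phospholipase C beta 2, was lower in CD51+ in cortex (1 count against 2749, of which 2135 lay in cortex CD51- replicate 2 and 18 in replicate 1, adjusted p 0.00415 and 0.0325 without replicate 2), and Adcy7, another adenylyl cyclase, was lower in hippocampus (1 count against 1117, adjusted p 0.0316). In hippocampus, mean Gnaz was 2.96 CPM in CD51+ against 21.9 CPM in CD51-, and mean Arrb1 was 84.4 against 78.1 CPM. The hippocampal classes overlapped for both, while the means of Adcy2, Gnao1 and Plcb2 kept the cortical direction there. The Gnaz and Adcy7 calls each held in 8 of 12 fits without 1 library, the Plcb1 and Gnao1 calls in cortex in 11 of 12, and the Adcy2, Arrb1 and Plcb2 calls in 12 of 12. The cortical calls of this group and of the next that are not among the 4 smallest p values of their list were picked for description after their values were seen.

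Of 34 genes for the uptake, synthesis and breakdown of these transmitters, 19 were tested and 11 had no count. In hippocampus 0 were called, beside 3.31% of all tested genes, and in cortex 3 were higher and 3 lower in CD51+, beside 11.3% of all tested genes. Maob, monoamine oxidase B, was at 60.2, 27.1 and 90.5 CPM in hippocampus CD51+ against 2.12, 39.2 and 23.7 CPM in hippocampus CD51-, and at 13.7, 120.1 and 29.2 CPM in cortex CD51+ against 0, 0 and 0 CPM in cortex CD51-. In cortex it was at least 565-fold higher in CD51+ (adjusted p 9.77e-04 by edgeR), and in hippocampus the classes overlapped and the log2 difference was 1.45 ± 1.25 (adjusted p 0.618).

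Adk, the adenosine kinase that clears adenosine, was higher in CD51+ in cortex (3.26 ± 1.01 log2 units, adjusted p 0.0393), and so was Hnmt, which methylates histamine (505 counts against 1, adjusted p 0.0285), of which 473 counts lay in replicate 3. Slc29a1 and Slc29a3, nucleoside transporters, were lower in CD51+ in cortex, with 0 counts against 562 (adjusted p 0.0337) and a difference of -2.71 ± 0.88 (adjusted p 0.049). Entpd1, the CD39 enzyme that breaks down extracellular ATP, was also lower there (-3.66 ± 0.96, adjusted p 0.017). In hippocampus, mean Entpd1 was 465 CPM in CD51+ against 268 CPM in CD51-. Mean Slc29a1 was 6.78 CPM in hippocampus CD51+ against 1.93 CPM in hippocampus CD51-. Both went against the cortical direction, with overlapping classes, while the hippocampal means of Adk, Hnmt and Slc29a3 kept it. The Adk and Slc29a3 calls in cortex held in 5 of 12 fits without 1 library each, the Slc29a1 call in 8 of 12 (adjusted p up to 0.0934), the Hnmt call in 9 of 12 (up to 0.209, without cortex CD51+ replicate 3) and the Entpd1 call in 10 of 12. Over the 6 lists, 131 genes were found and 61 were tested. Of the 61, 0 were higher and 4 lower in CD51+ in hippocampus, beside 3.31% of all tested genes called in either direction. In cortex 8 were higher and 8 lower, beside 11.3% of all tested genes.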

How the data were processed

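The deposited values are raw counts per gene. Per the file headers, featureCounts 2.0.4 counted read pairs over GENCODE vM25 exons, unstranded. STAR, mm10 and DESeq2 1.40.2 were used per the submitters' processing notes. Per the labels' protocols, libraries were made from 10 ng of RNA and read over 150 bases in each direction. Gene lengths are the deposited exon lengths of the same table. Symbols came from a name table that held 55141 of 55401 gene IDs.

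Groups follow the titles. Counts were tested with the edgeR 4.0.16 quasi-likelihood F test in R 4.3.3 (filterByExpr with minimum count 10 and minimum total 15, TMM factors, all 12 libraries in 1 fit, Benjamini-Hochberg at 0.05). There were 6 contrasts. The common dispersion came to 1.64 (biological coefficient of variation 1.28). A standard error is the absolute log2 difference divided by the square root of the F statistic. CPM uses TMM-scaled library sizes. Single members were also tested by exact two-sided permutation of log2(CPM + 0.5) (scipy 1.17.1, Python 3.11.15). Folds against a group with no count use a floor of 3 counts over the group, and groups with 1 to 3 counts get a ratio with a 95% counting interval.

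The members and gene lists were chosen with earlier results of these data known. All members are named. From each list up to 4 tested genes are named by p in the averaged contrast, plus those called in a region where these are 5 or fewer. Arrb1, Gnao1, Gnaz, Slc29a1, Entpd1, Itgav and the genes overlapping members were named after their values were seen. Alternatives were DESeq2 1.42.0, limma-voom (limma 3.58.1), RLE and upper-quartile factors, mitochondrial genes left out, no filter, 1 CPM in 3 libraries, robust dispersion, a replicate block, only the compared libraries, each library left out, unscaled library sizes and a pseudocount of 5. The edgeR script was tested on simulated data. Figures used matplotlib 3.10.9. A related gene that the naming rule picks is not reported here.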

Additional observations from a re-analysis of the deposited data

How the results depend on the processing

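Of 468 adjusted p values of the members under alternatives, 431 kept both their direction and their side of the threshold, 17 were no longer called, 14 became called and 6 changed sign. Without 1 library at a time, the members called numbered 0 to 1 in cortex, 0 to 1 with the regions averaged and 0 to 1 between regions within CD51-, and all genes called numbered 198 to 559 in hippocampus, 879 to 1507 in cortex, 2 to 35 between regions within CD51+, 0 to 68 within CD51- and 0 to 42 for the interaction. DESeq2 called 2 members in cortex, 3 between regions within CD51- and 1 for the interaction, with 1457 genes in hippocampus, 3219 in cortex, 488 and 706 between regions within CD51+ and CD51-, 522 for the interaction, and 10 and 25 related genes in hippocampus and cortex. Limma-voom called 1 member within CD51- between regions, and 885 genes in hippocampus, 2164 in cortex, 2 within CD51+ and 109 within CD51-. With no filter 1 member was called within CD51- and 1 for the interaction, with 636 genes in hippocampus, 97 within CD51+, 112 within CD51-, 146 for the interaction and 7 related genes in hippocampus. Robust dispersion called 1 member within CD51- and 20, 19 and 1 genes within CD51+, within CD51- and for the interaction. Among only the compared libraries, 0 members were called in cortex, where Adra1a failed the filter, and 3 genes between regions within CD51+. Libraries with the same replicate number did not deviate together (r -0.0496 to 0.0239), and with the replicate block 0 members were called in cortex (Adra1a adjusted p 0.0506) and 0 genes between regions within CD51+. Signs changed for uncalled values only. The hippocampal difference of Adrb1 did so with the replicate block (adjusted p 0.972) and without a library (0.764 to 0.906, exact permutation p 0.4 to 1), that of Adra2a without a library (0.813 to 0.996, exact permutation p 0.4 to 0.9) and on unscaled library sizes (exact permutation p 0.9), and that of Adora2b without a library (0.23 to 0.915, exact permutation p 0.3 to 1). The cortical difference of Chrm1 did so on unscaled library sizes (exact permutation p 1) and without a library (0.7 to 1). The cause of these changes was not tested. Upper-quartile factors moved the median log2 difference of all genes in hippocampus to 0.01 against -0.22 with TMM, and leaving out mitochondrial genes moved it in cortex to -0.14 against -0.03. Depth limits the scarcest members, of which P2ry1, Chrm1, Adra1b and Drd1 got no model test.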
